A study of Mus musculus with 8 samples.

Results

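Messenger RNAs that escape or follow deadenylation can be degraded by several routes. Proteins of the ZFP36 family bind AU-rich elements (AREs) in 3′ untranslated regions (UTRs) and recruit decay enzymes. The terminal uridylyltransferases TUT4 and TUT7 add uridines to short tails, which DIS3L2 recognises for 3′-to-5′ decay, whereas DCP2 with its coactivators DCP1A and DCP1B removes the cap and exposes the body to the 5′-to-3′ exonuclease XRN1. In fully grown oocytes transcription is silent, so maternal mRNA levels during maturation are set by storage and decay, and TUT4 and TUT7 are known to shape the maternal transcriptome. The 10 genes of these routes described here (Zfp36, Zfp36l1 and Zfp36l2; Tut4, Tut7 and Dis3l2; Dcp1a, Dcp1b, Dcp2 and Xrn1) were taken by symbol from 15962 genes that every library lists.

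RNA was measured in 8 libraries, 2 from each of 4 groups, all of mouse oocytes of the CD1 (ICR) strain from superovulated females of 6 weeks. GV and MII oocytes, before and after maturation in culture, were not injected. Btg4wt and Btg4tm oocytes were injected when fully grown with cRNA for Myc-tagged BTG4, an adaptor of the CCR4-NOT deadenylase, and collected at MII. The injected BTG4 had its wild-type form or alanines in place of 3 phosphorylated residues. The endogenous Btg4 gene was intact in every group. Each library was made from 15 pooled oocytes. The labels speak of 3 samples a group, of which 2 were analysed here, and nothing states that the 2 libraries of a group came from separate animals or cultures, so that p-values measure the spread between these libraries.

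Levels are given as TPM, the share of a library taken by a transcript per length of gene, scaled between libraries by the median of ratios. Because TPM times exon length gave whole reads, the depth could be recovered as 11878084 (Btg4tm replicate 1) to 24096049 (Btg4wt replicate 2) reads per library. Libraries were primed with oligo(dT), so tail length and number of molecules cannot be told apart, nor can less RNA per oocyte and fewer oocytes. Markers of oocytes were all detected, with 12 of 12 at 1 scaled TPM or more in every library and Dppa3 the highest at 11664 to 21486. Of 15 markers of cumulus and granulosa cells, 7 were listed in every table and 8 were not, among them the defining genes Amh, Foxl2 and Fshr. Tables of uninjected oocytes list 17384 genes and those of injected oocytes 16448. A gene missing from either set is not listed in every table, so the absence of these 8 from all libraries is not shown. The summed level of those 7 was 36.3 to 36.6 scaled TPM in GV, 46.7 to 50.5 in MII, 47.5 to 48.8 in Btg4wt and 36.8 to 42.1 in Btg4tm oocytes, most of it from Cyp19a1 (15.7 to 26.8) and Nr5a2. Inha, an inhibin subunit on that list named after its values were seen, moved the other way, with 4.37 and 2.11 in GV, 0 and 0.53 in MII, 1.88 and 1.09 in Btg4wt and 9.83 and 5.18 in Btg4tm oocytes, and was called in both comparisons (log2 fold changes -1.72 and 1.74). Gja1, also named after its values were seen, ran like Inha but under 1 scaled TPM. It had 0.49 and 0.38 in GV, 0.03 and 0.06 in MII, 0.15 and 0.13 in Btg4wt and 0.70 and 0.36 in Btg4tm oocytes. Kitl went with the sum (log2 fold changes 0.95 and -0.76). The part of these markers in the differences below was not tested. Btg4 itself had 2650 and 2794 scaled TPM in GV, 5792 and 6002 in MII, 5178 and 5510 in Btg4wt and 3725 and 4068 in Btg4tm oocytes. In the injected groups, values per gene symbol do not separate injected from endogenous Btg4 RNA.

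The 10 genes covered a wide range of abundance. Dcp1a was the highest in every group, at the 92.5th percentile of listed genes in GV oocytes and the 97.5th in MII oocytes, followed by Dcp2 and then Tut7, and the libraries of these neighbours did not overlap within any group. Zfp36 and Xrn1 came next, and their libraries overlapped in GV and in Btg4wt oocytes. Zfp36l1, Tut4 and Dcp1b stayed near or under 1 scaled TPM throughout, on 2 to 16, 8 to 30 and 18 to 45 reads. They did not reach 1 TPM in 2 libraries and were therefore not tested, which left 7 genes. Zfp36l2 passed that filter only through its GV libraries, so its difference from GV is partly set by the filter and is given as a description. Counts and medians of the 7 below include it.

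**Figure D1:**
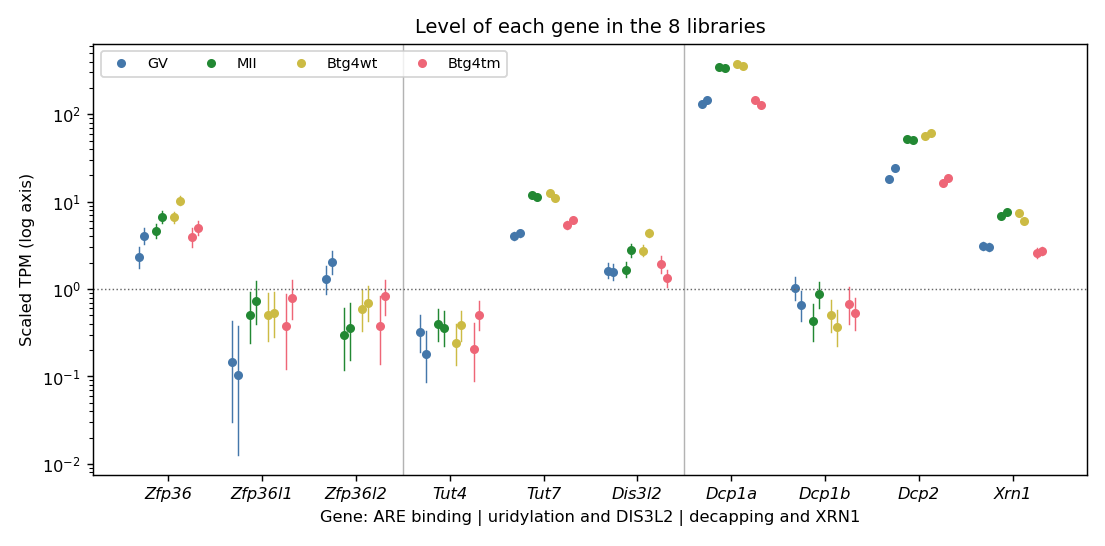
Scaled TPM on a log axis of the 10 genes in the 8 libraries (points, colored by group), with vertical lines for 95% Poisson intervals of the recovered reads (counting error only) and a dotted line at 1 TPM. Dcp1a, Dcp2, Tut7 and Xrn1 are high in both MII and both Btg4wt libraries and low in the GV and Btg4tm libraries.

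To see which of these 3′ UTRs carry elements of the kind ZFP36 proteins bind, the UTR of each gene's longest-UTR coding transcript (GENCODE M21, GRCm38) was searched on the transcript strand for TATTTAT, the core of a ZFP36 site, which contains ATTTA. Zfp36, Zfp36l1 and Zfp36l2 each hold 3 copies of TATTTAT. At least 1 copy is present in 29.8% of the 11031 tested genes that have a UTR, in 19.4% of those with a UTR of about the length of Zfp36 and in 36.5% of those about as long as Zfp36l2. The copies of Zfp36 lie 153 to 193 bases before the end of its UTR, in its last exon, and are shown with the motif in capitals because ZFP36 is known to act on its own mRNA:

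Zfp36 chr7:28376966-28376994, minus strand: agtgggcccttTATTTATgacgactttat

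Zfp36 chr7:28376951-28376979, minus strand: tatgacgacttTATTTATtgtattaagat

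Zfp36 chr7:28376926-28376954, minus strand: agattttatagTATTTATatatattgggt

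Zfp36l2 chr17:84184866-84184894, minus strand: tgtccatactgTATTTATcgagtatgatg

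Tut7, Dcp1a, Dcp1b and Xrn1 hold 1 copy each, Dcp2 holds 2, and Tut4 and Dis3l2 hold none. A second pair of motifs, TTTTAT and TTTTAAT, is the cytoplasmic polyadenylation element through which stored mRNAs can regain a tail in maturation, and it is known to act close to the 3′ end. Among the 10 genes Dcp1a alone has a match in the last 100 bases of its annotated UTR, as do 19.0% of all 11031 genes. It has 1 of each motif there, shown in capitals:

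Dcp1a chr14:30526985-30527014, plus strand: tttcatcctaaaTTTTATatgtttgcaaat

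Dcp1a chr14:30527010-30527038, plus strand: caaatatatttTTTTAATaaaatttcaaa

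A match is a description of these letters and not a measured binding site, and annotated ends may not be those used in oocytes.

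The first comparison asked how the genes changed in normal maturation, from GV to MII. Dcp1a, Dcp2, Xrn1 and Tut7 rose in share of the library, and Zfp36 and Dis3l2 did not pass the test. Of the 7 tested genes, 4 were called higher (adjusted p under 0.05 and over 2-fold) and 0 lower, against 12.5% higher and 24.0% lower of all 13968 genes tested. Their median log2 fold change was 1.01, beside 0.00 for all genes. Libraries of MII lay above both GV libraries for 6 of the 7, as did 41.1% of all tested genes.

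Dcp1a, which helps to activate DCP2, had 131 and 144 scaled TPM in GV and 351 and 337 in MII oocytes. Both MII libraries lay far above both GV libraries, with means of 137 ± 9.08 and 344 ± 9.72 (SD, n = 2). The log2 fold change was 1.32 (SE 0.11, adjusted p = 1.7e-05 from limma).

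Dcp2, the catalytic subunit of the decapping enzyme (chromosome 18, plus strand), had 18.1 and 24.0 scaled TPM in GV and 52.0 and 50.8 in MII oocytes. The groups did not overlap, and the log2 fold change was 1.26 (SE 0.15, adjusted p = 0.00016). This value differed from that of Dcp1a by less than its SE, and the ratio of Dcp1a to Dcp2 within a library, which no scaling between libraries can alter, was 7.23 and 5.98 in GV against 6.74 and 6.63 in MII oocytes.

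Xrn1, the cytoplasmic 5′-to-3′ exonuclease, had 3.13 and 3.01 scaled TPM in GV and 6.88 and 7.55 in MII oocytes. Its log2 fold change of 1.01 (SE 0.19, adjusted p = 0.0018) lay just past the fold threshold. It came to 0.89 on the TPM as deposited, 0.99 without GV replicate 2 and 0.95 without MII replicate 2, with the adjusted p still under 0.05. Dcp1b, the other coactivator, was not tested and had 1.04 and 0.66 scaled TPM in GV and 0.43 and 0.87 in MII oocytes, and these overlapped.

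Of the uridylation genes, Tut7 had 4.07 and 4.33 scaled TPM in GV and 11.9 and 11.2 in MII oocytes. The 2 groups stood well apart, and the log2 fold change was 1.27 (SE 0.17, adjusted p = 0.00026). Its paralog Tut4 had 0.32 and 0.18 in GV and 0.40 and 0.36 in MII oocytes, on 10 to 23 reads a library. Tut7 was thus the main transcript of the pair in every library, at 12.1 to 52.3 times the level of Tut4. Dis3l2 had 1.63 and 1.57 scaled TPM in GV and 1.67 and 2.77 in MII oocytes, and its log2 fold change of 0.29 (SE 0.27, adjusted p = 0.38) was within the spread of its libraries. Exons of Tut7 overlap those of Gm49354 and the antisense Etohd2 over 10.4% of their bases. Stretches of 50 bases shared with other genes, among them Etohd2, Gm49354 and Gm18769, cover 29.3% of its longest transcript. Etohd2 was at 0 to 0.28 scaled TPM, and Gm49354 was not listed in every table. The part of shared reads in the Tut7 values was not tested.

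The fold changes of the ARE-binding genes differed in sign. Zfp36, also known as an immediate early gene, had 2.32 and 4.03 scaled TPM in GV and 4.64 and 6.70 in MII oocytes, with a log2 fold change of 0.69 (SE 0.30, adjusted p = 0.072). Zfp36l2, whose product is required for fertility in female mice, had 1.29 and 2.02 in GV and 0.30 and 0.36 in MII oocytes, on 31 and 46 against 7 and 8 reads. Its log2 fold change was -0.99 (SE 0.24), just short of the fold threshold, -2.01 with a pseudocount of 0.1 and -2.25 with limma-voom on the recovered reads. Without the filter on low values limma gave an adjusted p of 0.0041. In the filtered fit the log2 fold change was -0.79 without GV replicate 2, which is a description.

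Zfp36l1 had 0.15 and 0.10 scaled TPM in GV and 0.50 and 0.74 in MII oocytes, on 3 and 2 against 10 and 14 reads. It was not tested in the main comparison. When the filter was dropped, the log2 fold change was 0.52 (adjusted p = 0.032 from limma), and limma-voom without the filter gave 2.07 (SE 0.90, adjusted p = 0.061). These reads are uncertain, because 55.9% of its exonic bases overlap the antisense Gm26669 and the counting ignored strand, and because stretches are shared with the pseudogene Zfp36l1-ps (0.99 to 12.2 scaled TPM).

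**Figure D2:**
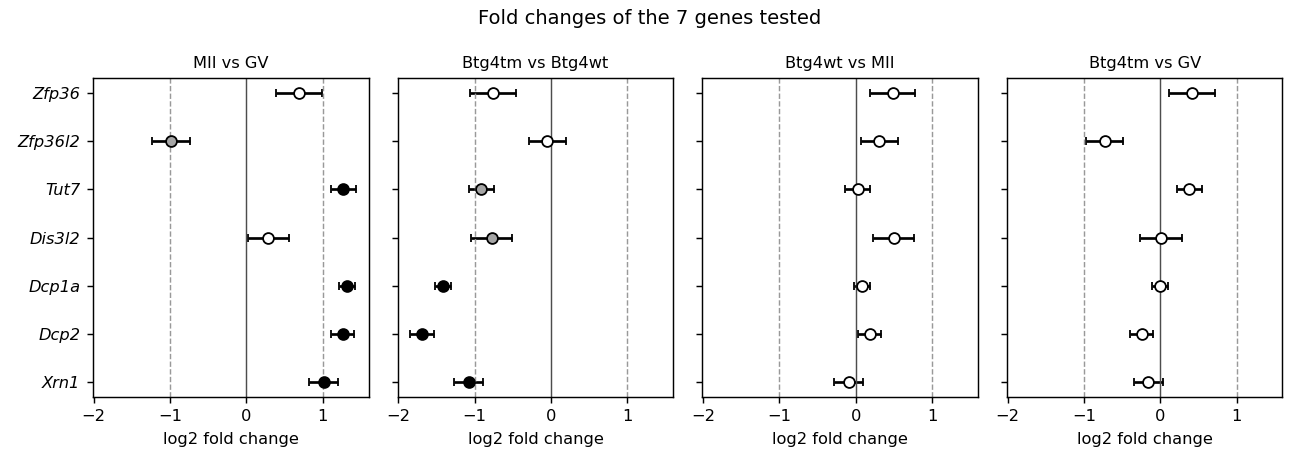
Log2 fold changes with standard errors (bars) of the 7 tested genes in 4 comparisons from limma. Black points were called (adjusted p under 0.05, over 2-fold, dashed lines), grey points passed the adjusted p alone and white points did not; Dcp1a, Dcp2 and Xrn1 are black on the right for MII vs GV and on the left for Btg4tm vs Btg4wt.

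The second comparison, Btg4tm against Btg4wt, asked what the mutated residues change in injected oocytes, and it shares no library with the first. Here Dcp1a, Dcp2 and Xrn1 were lower with the mutant, and Tut7 and Dis3l2 passed the adjusted p without reaching 2-fold. Of the 7 tested genes 3 were called lower and 0 higher, against 7.94% lower and 18.1% higher of all genes. By the adjusted p alone 5 were lower, against 23.3% of all genes, and the median log2 fold change was -0.91 beside 0.01 for all genes. The Btg4tm libraries lay below both Btg4wt libraries for 6 of the 7, as for 36.7% of all tested genes. Limma-voom on the recovered reads called 5 lower, adding Tut7 and Dis3l2.

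Dcp2 had 56.7 and 60.6 scaled TPM in Btg4wt and 16.5 and 18.5 in Btg4tm oocytes. This was the largest difference among the 7, at a log2 fold change of -1.69 (SE 0.15, adjusted p = 5.5e-05). Dcp1a had 374 and 355 scaled TPM in Btg4wt (365 ± 13.7, SD, n = 2) and 146 and 128 in Btg4tm oocytes (137 ± 13.0, SD, n = 2), with a log2 fold change of -1.41 (SE 0.11, adjusted p = 2.0e-05).

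Xrn1 had 7.49 and 6.01 scaled TPM in Btg4wt and 2.58 and 2.73 in Btg4tm oocytes, a log2 fold change of -1.08 (SE 0.19, adjusted p = 0.0019). Without Btg4wt replicate 1 it was -0.94. Its nuclear relative Xrn2 had a log2 fold change of -0.58 (SE 0.12). The ratio of Xrn2 to Xrn1 within a library, looked at after the values were seen, was 12.6 to 14.7 in the GV, MII and Btg4wt libraries and 25.1 and 21.9 in the Btg4tm libraries.

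Tut7 had 12.5 and 11.0 scaled TPM in Btg4wt and 5.42 and 6.15 in Btg4tm oocytes, with groups that did not overlap and a log2 fold change of -0.91 (SE 0.17, adjusted p = 0.0023). Dis3l2 had 2.76 and 4.36 in Btg4wt and 1.93 and 1.34 in Btg4tm oocytes, and its log2 fold change was -0.78 (SE 0.27, adjusted p = 0.042). Its adjusted p was 0.035 to 0.23 when 1 library was left out. Zfp36 had 6.59 and 10.2 against 3.92 and 5.04 scaled TPM, also without overlap, and missed the threshold at a log2 fold change of -0.76 (SE 0.30, adjusted p = 0.063). This value lay close to the threshold, with an adjusted p of 0.023 after quantile normalization and 0.037 with limma-voom. It was -0.48 to -1.04 with 1 library left out, and without Btg4wt replicate 1 it was called (-1.04, adjusted p = 0.046).

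Zfp36l2 had 0.59 and 0.70 scaled TPM in Btg4wt and 0.38 and 0.83 in Btg4tm oocytes, which overlapped (log2 fold change -0.05, SE 0.24, adjusted p = 0.89). The genes that were not tested had similar ranges: Zfp36l1 0.51 and 0.54 against 0.37 and 0.79, and Tut4 0.24 and 0.38 against 0.21 and 0.51. Dcp1b had 0.50 and 0.37 against 0.67 and 0.53. On these few reads the SE of limma-voom without the filter was 0.57 to 0.69 on the log2 scale, so that a 2-fold difference was not detectable at this depth.

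The level at which each gene ended was compared through Btg4wt against MII and Btg4tm against GV. Both set injected against uninjected oocytes, whose tables list different genes. Injection, the form of BTG4 and the set of tables therefore cannot be told apart here, nor can stage in Btg4tm against GV. In Btg4wt oocytes none of the 7 was called against MII, as for 0.00% of all genes with limma. Across all genes 1655 had an unadjusted p under 0.05, and limma-voom on recovered reads called 13 higher and 12 lower, none of them among the 7. The log2 differences of Dcp1a, Tut7, Dcp2 and Xrn1 were 0.08 (SE 0.11), 0.03 (SE 0.17), 0.19 (SE 0.15) and -0.09 (SE 0.19). In Btg4tm oocytes none of the 7 was called against GV, where 2.04% of all genes were. Dcp1a stood at -0.01 (SE 0.11), Xrn1 at -0.15 (SE 0.19), Dcp2 at -0.24 (SE 0.15) and Tut7 at 0.38 (SE 0.17, adjusted p = 0.17) on the log2 scale. The log2 difference of Zfp36l2 was -0.73 (SE 0.24). This difference from GV is also partly set by the filter and is a description.

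The sum of the maturation change and the mutant change is 0 where the difference with the mutant equals the maturation change in size and is opposite in sign. It was -0.09 (SE 0.15) for Dcp1a, -0.06 (SE 0.27) for Xrn1, -0.43 (SE 0.22) for Dcp2 and 0.36 (SE 0.24) for Tut7. None of the 7 passed an adjusted p of 0.05, and 7.62% of all genes did. On 7 genes a count of 0 lies near that share and sets them apart from other genes in no way. In limma with eBayes without trend, 0 of all genes passed. Among the 7, the farthest from 0 was Zfp36l2 at -1.04 (SE 0.35). This gene passed the filter only through its GV libraries, so its sum is partly set by the filter and is a description. Within a library, where no scaling enters, Zfp36 was 1.80 and 1.99 times Zfp36l2 in GV, 15.5 and 18.8 in MII, 11.2 and 14.6 in Btg4wt and 10.3 and 6.05 in Btg4tm oocytes. Both Btg4tm ratios lay above the GV and below the Btg4wt ratios, but the ratios 10.3 and 11.2 rest on 6 and 15 reads of Zfp36l2. The 95% counting intervals of Zfp36l2 in these libraries, 0.14 to 0.83 and 0.33 to 0.97 scaled TPM, overlapped. The order of Btg4tm and Btg4wt is therefore uncertain. An exact permutation test of 2 libraries against 2 cannot go below a two-sided p of 0.333 and was not used for these ratios.

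**Figure D3:**
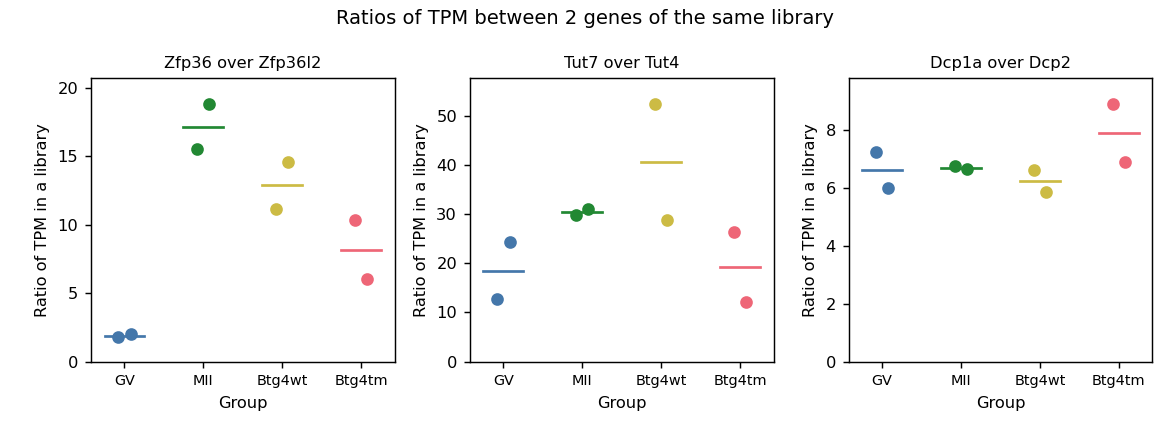
Ratio of TPM between 2 genes of the same library (points) with group means (lines), for Zfp36 over Zfp36l2, Tut7 over Tut4 and Dcp1a over Dcp2, on linear axes from 0. The Zfp36 to Zfp36l2 ratio is 1.80 and 1.99 in GV and 6.05 or more in all other libraries, and Dcp1a to Dcp2 lies between 5.86 and 8.88 in all 8. Zfp36l2 had 6 to 46 reads a library and passed the filter only through GV, and Tut4 had 8 to 30 reads.

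All of these changes are in shares of the captured RNA. Mitochondrially encoded genes took 0.63% to 0.65% of the TPM in GV, 2.60% to 2.71% in MII, 1.75% to 2.05% in Btg4wt and 0.77% to 1.02% in Btg4tm oocytes. When libraries were scaled to these genes, the median gene stood at -1.74 in MII vs GV and at 0.88 in Btg4tm vs Btg4wt. The change of Dcp1a in maturation then became -0.89, that of Dcp2 -0.89, that of Xrn1 -0.81 and that of Tut7 -0.67. Relative to the median gene these 4 remained higher in MII oocytes, by 0.85, 0.85, 0.93 and 1.08, and lower in Btg4tm oocytes, by 1.20, 1.51, 1.07 and 0.82 for Dcp1a, Dcp2, Xrn1 and Tut7.

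**Figure D4:**
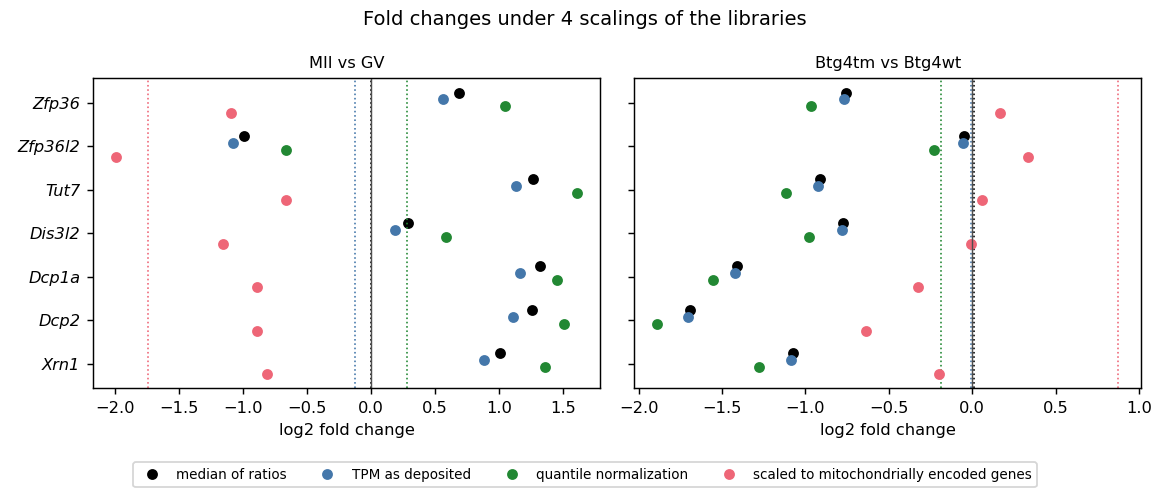
Log2 fold changes of the 7 tested genes under 4 scalings of the libraries (colors), with dotted lines at the median of all genes under each. In MII vs GV the points scaled to mitochondrially encoded genes lie under 0, yet 6 of 7 lie to the right of their dotted line at -1.74, and in Btg4tm vs Btg4wt all points lie to the left of the line of their own color.

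Other genes of the same routes were described by lists, by count and median, to be read beside the 12.5% higher and 24.0% lower of all genes in MII vs GV and the 18.1% higher and 7.94% lower in Btg4tm vs Btg4wt. Other regulatory proteins of 3′ UTRs had medians of the same sign as the 7 genes. Of 10 tested, 3 were called higher and 0 lower in MII vs GV (median log2 fold change 0.90), and 0 higher and 3 lower in Btg4tm vs Btg4wt (median -0.75). Khsrp, another ARE-binding decay factor, had 4.34 and 6.62 scaled TPM in GV, 21.7 and 20.1 in MII, 28.6 and 30.6 in Btg4wt and 10.2 and 16.5 in Btg4tm oocytes. Its log2 fold changes were 1.78 (SE 0.24, adjusted p = 0.00033) and -1.13 (SE 0.24, adjusted p = 0.0054). Rc3h1, which encodes the stem-loop binding protein roquin, changed by 1.21 and -1.17, and Tardbp rose by 1.15 in MII oocytes. Elavl2, an ARE-binding protein of the HuR family, was lower by 1.04 with the mutant. Hnrnpd, on the same list and named after its values were seen, ran the other way without reaching 2-fold. Its log2 fold changes were -0.68 (SE 0.20, adjusted p = 0.018 from limma) and 0.73 (SE 0.20, adjusted p = 0.016).

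Activators of decapping and the LSM proteins were called in both directions. Of 17 tested, 4 were called higher and 5 lower in MII vs GV (median 0.17), and 3 higher and 2 lower in Btg4tm vs Btg4wt (median -0.38). Lsm3 and Lsm6, subunits of the LSM ring that binds 3′ ends, ran opposite to Dcp1a and Dcp2. Other LSM subunits, named after their values were seen, were split. Lsm2 (-1.02 and 0.93) and Lsm4 (-0.83 and 1.05) ran with Lsm3 and Lsm6 in both comparisons. Lsm7 was called higher in MII oocytes (1.05, adjusted p = 0.0012), and Lsm1 passed the adjusted p there at 0.47. Lsm5 did not pass there (0.27). Lsm3 had 172 and 148 scaled TPM in GV, 39.2 and 36.2 in MII, 33.1 and 35.6 in Btg4wt and 139 and 173 in Btg4tm oocytes (log2 fold changes -2.05 and 2.15). Lsm6 changed by -1.93 and 2.02, and Patl2, an oocyte translational repressor, by -1.90 in MII oocytes. Lsm14b, a component of oocyte RNP granules, had 32.7 and 36.7 in GV, 104 and 115 in MII, 121 and 109 in Btg4wt and 42.9 and 61.6 in Btg4tm oocytes. Ddx6, the helicase that links CCR4-NOT to decapping, was 17.8 and 15.9 in Btg4wt and 5.33 and 5.15 in Btg4tm oocytes, a log2 fold change of -1.51 (SE 0.18, adjusted p = 0.00025).

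Of 7 other decapping and 5′-to-3′ decay enzymes, 1 was called higher and 2 lower in MII vs GV, and 2 higher and 0 lower in Btg4tm vs Btg4wt. Dxo, which removes incomplete caps, fell from 27.7 and 31.7 scaled TPM in GV to 0.92 and 1.52 in MII and was 1.84 and 1.07 in Btg4wt and 21.6 and 16.0 in Btg4tm oocytes. Nudt2 changed in the same directions (-1.89 and 1.22), and Xrn2, the nuclear counterpart of Xrn1, rose by 1.16. Of 14 other tailing and trimming genes, 2 were called higher and 1 lower in MII vs GV, and 0 higher and 1 lower with the mutant. Lin28a, whose product directs TUT4 and TUT7 to let-7 precursors, had 21.9 and 19.1 in GV, 65.6 and 60.9 in MII, 60.0 and 64.7 in Btg4wt and 20.5 and 17.6 in Btg4tm oocytes. Its log2 fold changes were 1.58 (SE 0.13, adjusted p = 2.2e-05) and -1.66 (SE 0.13, adjusted p = 2.9e-05). Tent4a, a mixed-tail polymerase, rose by 1.59, and Dis3l, a catalytic subunit of the cytoplasmic exosome, was lower by 1.02 in MII oocytes.

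Immediate early genes were listed for 9 of 17, and 0 were called higher and 1 lower in MII vs GV, and 0 higher and 1 lower in Btg4tm vs Btg4wt. Egr1 was that gene with the mutant, at 27.3 and 54.4 in Btg4wt and 11.3 and 17.1 in Btg4tm oocytes (log2 fold change -1.41, SE 0.36, adjusted p = 0.012). The gene called lower in maturation was Atf3, which was named after its values were seen, with 3.94 and 4.62 scaled TPM in GV and 0.56 and 0.15 in MII oocytes. With the scaling to mitochondrially encoded genes every gene of these lists called higher in MII oocytes turned negative, and each still lay above the median of all genes.

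**Figure D5:**
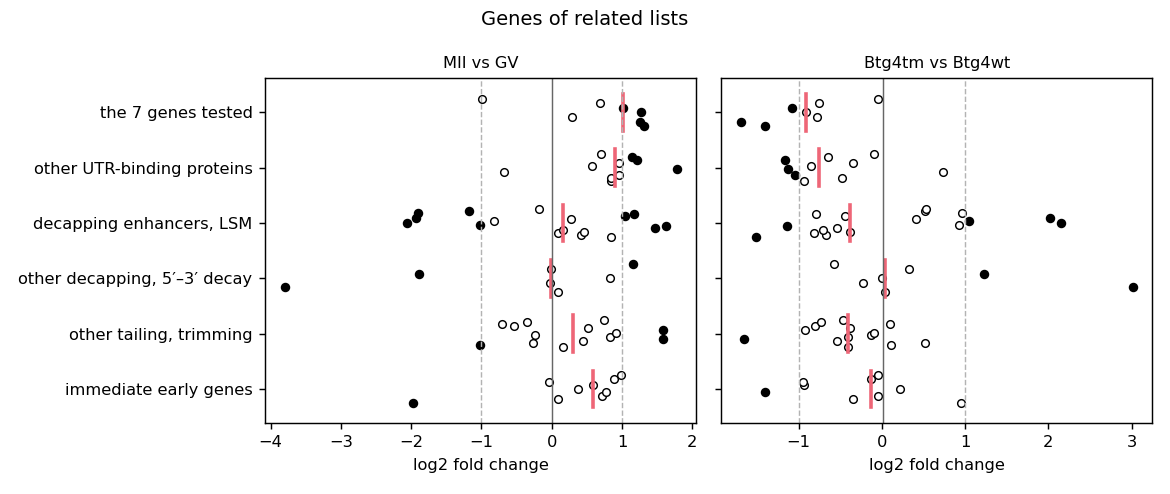
Log2 fold changes of single genes (points, black where called) in the 7 tested genes and 5 related lists, for MII vs GV and Btg4tm vs Btg4wt, with the list median (red) and the median of all genes (grey line). The median of the 7 is 1.01 and -0.91, and the decapping enhancers spread to both sides of 0 in each comparison.

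The genes with the nearest courses were found by the Euclidean distance of centred log2 values over the 8 libraries, among the 6882 genes that averaged 10 scaled TPM or more. Nearest to Dcp1a were Slc39a10 (distance 0.11), Wwc2 (0.15) and Helq (0.16), and Dcp2 ranked 104. Xrn1 and Tut7 average less and were not among the 6882, and by distance they would rank 281 and 316. Nearest to Tut7 were Zfp955b (0.11), Dot1l (0.12) and Ergic2 (0.16). For Zfp36 the nearest were Gpatch4 (0.33), Htatsf1 (0.44) and Wasf1 (0.49), at larger distances, and Zfp36l2, which also averages less, would rank 4530 by distance. All courses come from the same 8 libraries, and the distances are descriptions.

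The elements described above were also set against all genes. Among the 2755 genes with the longest UTRs (2388 bases or more), which include Dis3l2, Dcp1a, Dcp2 and Xrn1, the 1540 with TATTTAT had a median log2 fold change of 0.49 in MII vs GV and the 1215 without it 0.24. In Btg4tm vs Btg4wt these medians were -0.36 and -0.30. In the same class the 603 genes with TTTTAT or TTTTAAT in the last 100 bases, as in Dcp1a, had a median of 0.56 in MII vs GV and the 2152 others 0.35, a split chosen after the data were seen.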

How the data were processed

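The authors trimmed reads with Trim Galore 0.6.10, aligned them to GRCm38 with HISAT2 2.2.0 and GENCODE vM25, counted exonic reads with featureCounts 2.0.6 without regard to strand, dropping mapping quality under 10, and deposited TPM per gene symbol in each of 8 libraries. The gene lengths behind the TPM are not given in the sources used here. Deposited TPM times exon union length of GENCODE M21, an earlier release than the study's, were whole multiples of a constant per library (98.2% to 98.6% of genes under 100 reads within 0.02), which gave reads and depth, on the assumption that this constant is 1 read. Poisson intervals cover counting error only.

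TPM of the 15962 shared genes were scaled by the median of ratios (factors 0.948 to 1.11). log2(TPM + 1) of 13968 genes with 1 TPM or more in 2 libraries was fitted in limma 3.58.1 (R 4.3.3, eBayes with trend, all 8 libraries). Genes were called at an adjusted p (Benjamini-Hochberg, over all genes) under 0.05 together with an absolute log2 fold change over 1. Fold changes on this scale understate those of low genes. The procedure was tested on simulated data. Limma-voom on recovered reads was added after the data were seen. The members and lists were chosen with earlier results of these data known. Named genes were the members, called list genes with a mean of 10 scaled TPM or more (at most 4 per list and comparison), the 3 nearest courses, Btg4 and the highest marker of each list.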

Additional observations from a re-analysis of the deposited data

How the results depend on the processing

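With 2 libraries per group the spread is known poorly, and genes under 1 TPM are limited by their reads. Of 711 single-gene values under the alternatives, 643 kept direction and side of the threshold, 25 came to pass it, 7 no longer passed it and 36 changed sign, 14 of these under the mitochondrial scaling. Scaling to mitochondrially encoded genes gave 3 calls, all lower, in MII vs GV, 0 in Btg4tm vs Btg4wt, 1 in Btg4tm vs GV and 5 for the sum of both changes. Of all 13968 genes, this scaling called 7 higher and 11403 lower in MII vs GV. It called 6089 higher and 69 lower in Btg4tm vs Btg4wt, and 38 higher and 2972 lower in Btg4tm vs GV. For the sum 7463 of all genes passed the adjusted p. The sign changes under this scaling in MII vs GV were Zfp36 -1.09, Tut7 -0.67, Dis3l2 -1.15, Dcp1a -0.89, Dcp2 -0.89 and Xrn1 -0.81. In Btg4tm vs Btg4wt they were Zfp36 0.17, Zfp36l2 0.34 and Tut7 0.056, in Btg4wt vs MII Xrn1 0.31, in Btg4tm vs GV Zfp36 -0.088, Tut7 -0.16 and Dis3l2 -0.45, and for the sum Tut7 -0.61. By construction this scaling moves every gene of a library together; why the mitochondrial share differs was not tested. With no minimum fold change, and with limma-voom with or without the filter, 5 genes were called in Btg4tm vs Btg4wt. Other sign changes were Tut7 -0.0054 (Btg4wt vs MII) and Zfp36 0.081 and Xrn1 0.084 (sum) with quantile normalization, and Dis3l2 in Btg4tm vs GV at -0.090 on TPM as deposited, -0.058 with limma-voom and -0.039 with limma-voom without the filter. Quantile normalization moved the median of all genes to 0.28 and -0.19 in the first and second comparison, and TPM as deposited to -0.13 in the first. The cause of these changes was not tested.

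When each library was left out in turn (the lone library was assumed to vary like the other groups), 3 to 5 genes were called in MII vs GV, with 3 without GV replicate 2, and 3 to 4 in Btg4tm vs Btg4wt. Log2 values that changed sign ranged in Btg4tm vs Btg4wt from -0.25 to 0.16 for Zfp36l2, in Btg4wt vs MII from -0.057 to 0.11 for Tut7 and from -0.23 to 0.048 for Xrn1, and in Btg4tm vs GV from -0.15 to 0.17 for Dis3l2 and from -0.10 to 0.091 for Dcp1a. For the sum they ranged from -0.37 to 0.23 for Zfp36, from -0.18 to 0.0081 for Dcp1a and from -0.20 to 0.074 for Xrn1. Libraries share replicate numbers, but nothing states that a number pairs samples. Over all tested genes the correlation of deviations was -0.016 for GV and MII and 0.055 for Btg4wt and Btg4tm. With 2 libraries per group these values cannot show whether samples with the same number were paired. A replicate block in limma gave 4 calls in MII vs GV and 3 in Btg4tm vs Btg4wt, and changed no call at the fold threshold. It took the adjusted p of Zfp36 from 0.072 to 0.027 in MII vs GV and from 0.063 to 0.024 in Btg4tm vs Btg4wt. That of Dis3l2 in Btg4tm vs Btg4wt went from 0.042 to 0.069 and no longer passed. The block put the log2 difference of Dcp1a at 0.081 in Btg4tm vs GV.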
